A study of Mus musculus with 12 samples.

Results

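The mitochondrial chromosome of the mouse carries 37 genes, 13 for mRNAs, 2 for rRNAs and 22 for tRNAs. They were taken by their location, as every gene of chrM in the GRCm38 annotation of GENCODE M21, all with symbols that start with mt-. All 37 had a row among the 38924 gene IDs counted in whole kidney of mice on the C57BL/6J background. The study compared kidneys that lack BMAL1, the clock transcription factor encoded by Arntl, in renal tubule cells with kidneys of wild-type littermates. Knockout (KO) mice carried Bmal1lox/lox, Pax8-rtTA and LC1. In this system the Pax8 promoter drives a doxycycline-dependent activator in the tubule, which turns on the Cre recombinase of the LC1 transgene, and the deletion therefore spares kidney cells outside that promoter's reach. Doxycycline was given at 2 mg/ml in drinking water for 2 weeks from 8 weeks of age. The sources used here do not state which alleles the wild-type (WT) littermates carried, whether they received doxycycline, or the sex of the mice. All mice were fed a standard chow and kept in 12 h of light and 12 h of dark. Kidneys were taken at zeitgeber time 4 (ZT4), in the light phase, or ZT16, in the dark phase. There were 3 libraries in each of the 4 groups, numbered 1, 3 and 5 in WT and 2, 4 and 6 in KO. That these replicates were separate animals is not said in the labels, and p-values then measure spread that may be technical.

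The mitochondrial genome is a small circle transcribed from both strands into long precursor RNAs, from which most mRNAs and rRNAs are cut free at the tRNAs that lie between them. Its mRNAs encode subunits of respiratory complexes I, III and IV and of the ATP synthase (complex V), and its rRNAs and tRNAs translate those mRNAs inside the organelle. All other proteins of transcription, RNA processing and translation in mitochondria come from nuclear genes. Kidney tubule cells, above all those of the proximal tubule, are rich in mitochondria, whose ATP powers the reabsorption of salt and solutes. TruSeq Stranded mRNA libraries, as used here, select RNA with a poly(A) tail. Most mitochondrial mRNAs have a short tail, the rRNAs have very short ones, mt-Nd6 is known for lacking a stable tail, and mature tRNAs end in CCA. The counts of the last 3 kinds therefore follow capture by the tail as well as abundance.

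The following sequences show what decides whether a read can be placed on this genome. The first 60 bases of mt-Co2, which encodes subunit 2 of cytochrome c oxidase (complex IV), at chrM:7013-7072 on the plus strand, stand beside the same stretch of its copies on nuclear chromosomes, the pseudogenes Gm28661 on chromosome 1 and Gm13341 on chromosome 2. Capitals mark bases that differ from mt-Co2. The letters come from the GENCODE M21 transcripts.
mt-Co2: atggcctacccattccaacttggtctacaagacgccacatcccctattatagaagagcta
Gm28661: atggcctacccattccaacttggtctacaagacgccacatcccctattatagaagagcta
Gm13341: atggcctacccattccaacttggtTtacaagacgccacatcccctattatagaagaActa
The chromosome 1 copy differs at 0 of the 60 bases, and a read from here fits both places equally well. The chromosome 2 copy differs at 2, so that a read over either position can be told apart.

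The same property holds over a long stretch of chromosome 1. Pseudogenes of 7 mitochondrial mRNAs lie on chromosome 1 in the order they have in mitochondria, between 24611535 and 24616197 in GRCm38, and match chrM from 6390 to 11042, a span of 4653 bases. Identity over the aligned bases was 100% for the copies of mt-Co2, mt-Atp6, mt-Co3, mt-Nd4l and mt-Nd4, and 99.8% and 99.7% for those of mt-Co1 and mt-Nd3. Stretches of at least 100 identical bases covered 99.6% of mt-Co2, 99.6% of mt-Atp6, 99.9% of mt-Co3, 98.3% of mt-Nd3 and 98.99% of mt-Nd4l. They covered 63.6% of mt-Nd4, 48.1% of mt-Co1 and 12.4% of mt-Nd2, and none of mt-Nd1, mt-Nd5, mt-Nd6, mt-Cytb, mt-Rnr1 or mt-Rnr2. These shares count annotated transcripts of all nuclear chromosomes. mt-Nd2, at chrM:3914-4951, lies outside the chromosome 1 stretch, and its closest copy, Gm13339, is on chromosome 2. The chromosome 1 copy of mt-Co1 aligned over 483 bases, fewer than the 743 bases of mt-Co1 counted as identical. Of the 7 pseudogenes, only Gm10222, the copy of mt-Nd4l, had a row in the count files. The search covered annotated transcripts and not the whole genome, and so can miss unannotated copies.

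The measured levels divided along this stretch. The 11 genes that lie wholly inside it were mt-Co2, mt-Atp8, mt-Atp6, mt-Co3, mt-Nd3, mt-Nd4l and 5 tRNAs. The highest level of any of them in any library was 21.7 CPM, the counts of a gene scaled to 1000000 gene counts in each library, and together they made up 0.00646% to 0.0223% of the mitochondrial counts. Reads aligned to more than 1 place, 30.8% to 43.0% of each library, were not assigned to genes. For mt-Co2, mt-Atp6, mt-Co3, mt-Nd3 and mt-Nd4l, which lie almost wholly in bases identical to a nuclear copy, the levels are those of the reads that were placed uniquely and are no measure of their RNA. mt-Atp8 and the 5 tRNAs of the stretch hold 0 such bases of an annotated copy, and what sets their low levels was not tested. The other mRNAs, mt-Nd1, mt-Nd2, mt-Nd4, mt-Nd5, mt-Nd6, mt-Cytb and mt-Co1, are called the 7 well-covered mRNAs here. The name refers to their counts, at least 1000 in every library, and not to the whole of their length. Levels of mt-Nd4 and mt-Co1, with 63.6% and 48.1% identical bases, can leave out reads from those bases. mt-Atp8 has only 43 bases in an annotated copy, the part that overlaps mt-Atp6, and lies between copies for the rest.

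**Figure D1:**
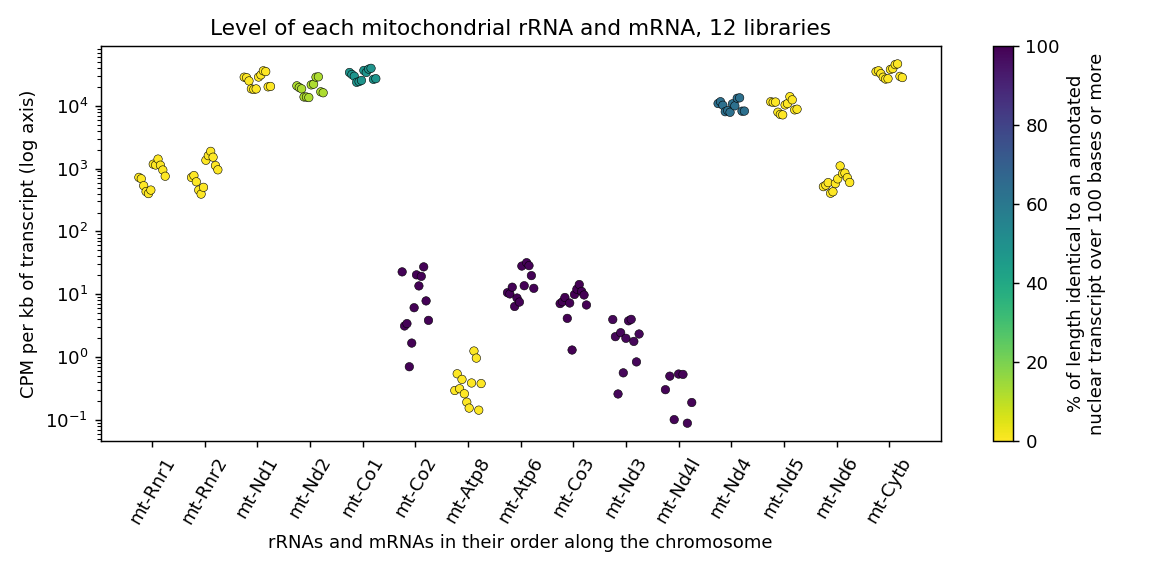
Level per length of the mitochondrial mRNAs and rRNAs (CPM per kb, log axis, 1 point per library; libraries at 0 counts, 1 for mt-Nd3 and 5 for mt-Nd4l, are not drawn) against the share of each gene's bases in stretches of at least 100 bases identical to an annotated nuclear transcript. The genes with 98.3% to 99.9% of such bases lie far below mt-Co1, mt-Nd4 and the mRNAs and rRNAs with none other than mt-Atp8, which has none and lies at 0.143 to 1.25 CPM per kb.

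How the mRNAs end is shown next, because a stop codon that is not encoded in full is a feature of this genome that depends on the poly(A) tail. Capitals mark the stop codon or the part of it in the DNA, in the last 18 bases of 5 mRNAs.
mt-Nd1: gtaccaccatacataTAG
mt-Co1: tatgtaaaagtaaaaTAA
mt-Co3: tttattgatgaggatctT
mt-Nd4: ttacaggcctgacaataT
mt-Cytb: tactaaaattatatccaT
Of the 13 mRNAs, 8 ended in TAA and 2 in TAG. mt-Co3, mt-Nd4 and mt-Cytb ended in a lone T, which the tail's A bases complete to TAA. The genes that share bases also bear on the counts, and mt-Nd5 and mt-Nd6 are the pair of mRNAs on opposite strands. Their last 40 bases are given, each 5′ to 3′ on its own strand, chrM:13526-13565 on the plus strand and chrM:13552-13591 on the minus strand, with the 14 shared bases in capitals.
mt-Nd5: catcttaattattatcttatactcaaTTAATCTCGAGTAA
mt-Nd6: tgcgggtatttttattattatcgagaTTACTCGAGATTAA
Whether the counting used strand is not stated in the sources used here. Without strand, reads of mt-Nd6 and of the opposite-strand precursor that runs across it cannot be told apart. On the same strand, mt-Atp8 and mt-Atp6 share 43 bases, mt-Nd4l and mt-Nd4 share 7, and mt-Nd1 and mt-Ti, the isoleucine tRNA, share 2. mt-Ti is printed whole because it had the highest counts of the tRNAs.
mt-Ti: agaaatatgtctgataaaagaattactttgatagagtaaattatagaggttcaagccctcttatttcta
It lies at chrM:3706-3774 on the plus strand.

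Gene counts per library ranged from 25628887 to 38043491 with a median of 33380393.5. Proximal tubule markers, 16 of 16 matched, summed to 47942 to 82125 CPM per library. Arntl was at 14.4 to 20.1 CPM in WT and 16.5 to 18.6 CPM in KO at ZT4, and at 8.10 to 9.62 CPM and 10.1 to 16.02 CPM at ZT16. Counts of Arntl over all exons therefore do not check the genotype labels. The first principal component of log2 CPM held 69.8% of the variance. On it KO ZT16 replicate 2 lay at 46.5, among the WT ZT16 libraries at 21.4 to 49.2. The other KO ZT16 libraries lay at −12.1 and −14.3. The WT ZT4 libraries lay at −15.8 to 4.87 and the KO ZT4 libraries at −36.6 to −33.1. Across the times, libraries of both genotypes therefore overlapped on this component. Thra, a gene described below, was at 19.9 ± 3.75 CPM in WT and 59.8 ± 9.79 CPM in KO at ZT16 (SD). Its log2 fold change in KO at ZT16 was 1.44 with all libraries and 1.45 without KO ZT16 replicate 2. Whether the genotype label of that library is right was not tested. Calls of mitochondrial genes, and calls of gene lists for KO against WT at ZT16, are given with and without KO ZT16 replicate 2.

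The mitochondrial genome took 12.6% to 22.4% of all gene counts. Reads aligned in several places are not among these counts. The share therefore can leave out mitochondrial reads from bases identical to a nuclear copy, and is no measure of all RNA of this genome. In WT at ZT4 the share was 17.96%, 17.6% and 16.3% (17.3% ± 0.891, SD, n = 3), and in KO at ZT4 it was 12.8%, 12.6% and 12.7% (12.7% ± 0.112, SD, n = 3). In WT at ZT16 it was 18.7%, 18.8% and 22.4% (19.9% ± 2.10, SD, n = 3), and in KO at ZT16 it was 22.3%, 14.1% and 14.03% (16.8% ± 4.75, SD, n = 3). The KO libraries lay below the WT libraries with no overlap at ZT4, and at ZT16 only without KO ZT16 replicate 2, which lay within the WT range. No test was made of this share, a sum over genes chosen with earlier results of these data known. In whole kidney, fewer cells of a type and less RNA per cell cannot be told apart.

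Other properties of the libraries moved with the share. The reads aligned in several places were 35.6% ± 1.30 of all reads in WT and 31.1% ± 0.217 in KO at ZT4. At ZT16 they were 39.96% ± 1.59 in WT and 36.8% ± 5.41 in KO (SD, n = 3 each). The reads outside annotated genes were 4.64% ± 0.399 of all reads in WT and 5.86% ± 0.120 in KO at ZT4, and 3.87% ± 0.224 in WT at ZT16 (SD, n = 3 each). Malat1, a long RNA kept in the nucleus, was at 517 ± 162 CPM in WT and 924 ± 138 CPM in KO at ZT4, and at 489 ± 93.5 CPM and 667 ± 274 CPM at ZT16 (SD, n = 3). KO ZT16 replicate 2 had the lowest share of reads outside annotated genes, 3.50%. It also had the lowest Malat1, 350 CPM, beside 816 and 835 CPM in the other KO ZT16 libraries. It had the highest share of reads aligned in several places, 43.0%, which can include mitochondrial reads from bases identical to a nuclear copy. It also had the highest sum of proximal tubule markers. Their part in the share was not tested.

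**Figure D2:**
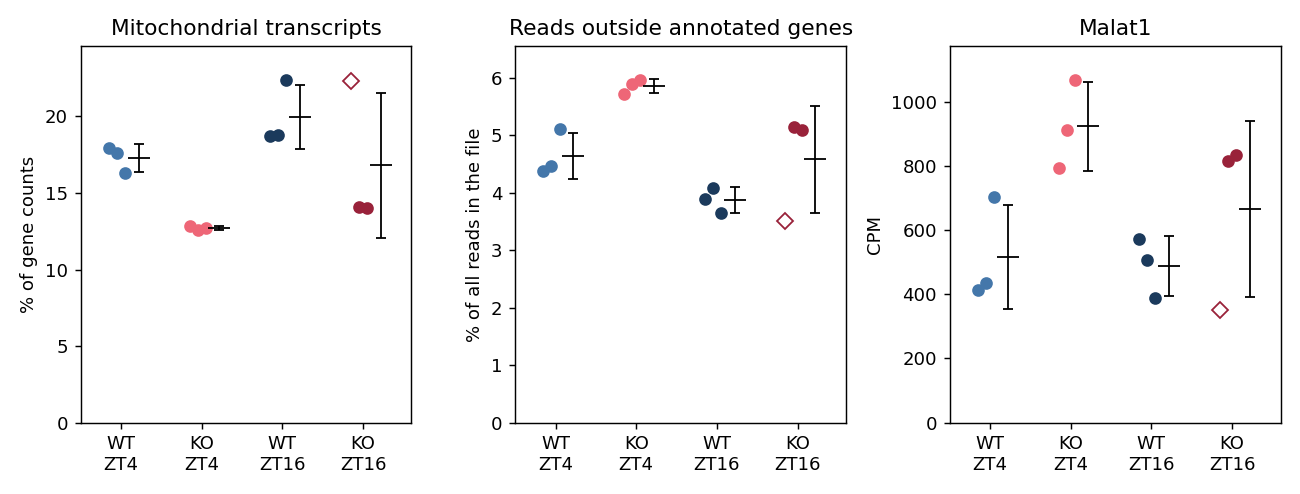
Share of gene counts on the mitochondrial chromosome (%), share of reads outside annotated genes (%) and Malat1 (CPM), 1 point per library by group; black bars are mean ± SD of 3 libraries and the open diamond is KO ZT16 replicate 2. The KO libraries at ZT4 sit at 12.6% to 12.8% on the mitochondrial chromosome, below all WT libraries, and the open diamond sits at 22.3%.

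The mRNAs held 98.0% to 99.2% of the mitochondrial counts, 3232364 to 7818313 counts per library. The rRNAs held 31541 to 153133 counts and the tRNAs 574 to 2247. Per kb of exon, averaged over the 12 libraries, mt-Cytb was at 34335 CPM, mt-Co1 at 30839 CPM, mt-Nd1 at 25674 CPM, mt-Nd2 at 19506 CPM, mt-Nd5 at 10153 CPM and mt-Nd4 at 10064 CPM. Then came mt-Rnr2 at 992 CPM, mt-Rnr1 at 818 CPM and mt-Nd6 at 655 CPM per kb. The order was the same in 12 of 12 libraries from mt-Cytb to mt-Nd2 and above mt-Nd5 and mt-Rnr2. mt-Nd5 and mt-Nd4 were in this order in 6 of 12 libraries and did not differ beyond their spread. mt-Rnr2 stood above mt-Rnr1 in 6 of 6 libraries at ZT16 and 4 of 6 at ZT4, and mt-Rnr1 above mt-Nd6 in 6 of 6 at ZT16 and 3 of 6 at ZT4. The place of mt-Co1 and mt-Nd4 rests on the bases counted. With the bases identical to a nuclear copy left out of the length, an alternative chosen after seeing the data, mt-Co1 stood at 59410 CPM per kb, ahead of mt-Cytb in 12 of 12 libraries, and mt-Nd4 at 27627 CPM per kb, ahead of mt-Nd1 in 11 of 12.

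The complex I genes encode membrane subunits of NADH dehydrogenase. mt-Nd1 (ENSMUSG00000064341) was at 27319, 26846 and 23800.0 CPM in WT and 17797, 17448 and 17766 CPM in KO at ZT4. At ZT16 it was at 27462, 29695 and 34524 CPM in WT and 33546, 19178 and 19456 CPM in KO. At ZT4 every KO library lay below every WT library, and at ZT16 KO replicate 2 lay within the WT range with the others below it. mt-Nd2 was at 21594, 20291 and 19324 CPM in WT and 14344, 14323 and 14045 CPM in KO at ZT4. At ZT16 mt-Nd2 was at 22357, 22926 and 29664 CPM in WT and 30033, 17336 and 16735 CPM in KO. Its pattern was that of mt-Nd1, with KO ZT16 replicate 2 above all 3 WT libraries.

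mt-Nd4 was at 14972, 16019 and 14055 CPM in WT and 11096, 11571 and 10854 CPM in KO at ZT4. At ZT16 mt-Nd4 was at 14815, 13752 and 18149 CPM in WT and 18462, 11314 and 11361 CPM in KO. The WT libraries of the 2 times overlapped, unlike those of mt-Nd2. mt-Nd5 (ENSMUSG00000064367), the longest mRNA of this genome at 1824 bases, was at 21166, 20705 and 20935 CPM in WT and 14418, 13291 and 13086 CPM in KO at ZT4. At ZT16 mt-Nd5 was at 18822, 19788 and 25496 CPM in WT and 22698, 15714 and 16103 CPM in KO. Again KO ZT16 replicate 2 was the only KO library in the WT range, and the WT libraries of the 2 times overlapped.

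mt-Nd6, the only mRNA on the minus strand, was at 268, 283 and 311 CPM in WT and 210.4, 222 and 300.1 CPM in KO at ZT4. At ZT16 mt-Nd6 was at 356, 572 and 431 CPM in WT and 441, 372 and 312 CPM in KO. Here the genotypes overlapped at both times, and the times did not overlap in either genotype. mt-Nd3 and mt-Nd4l, the complex I genes inside the chromosome 1 stretch, had 0 to 50 and 0 to 6 counts per library. mt-Nd3 had 46, 0 and 23 counts in WT and 3, 32 and 5 in KO at ZT4, and 22, 50 and 49 in WT and 22, 10 and 21 in KO at ZT16. mt-Nd4l had 3, 4 and 0 counts in WT and 1, 6 and 0 in KO at ZT4, and 5, 1 and 0 in WT and 2, 0 and 0 in KO at ZT16.

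mt-Cytb encodes cytochrome b, the subunit of complex III made in mitochondria. It was at 40027, 41326 and 37117 CPM in WT and 32618, 30505 and 30904 CPM in KO at ZT4. At ZT16 mt-Cytb was at 43333, 44763 and 51752 CPM in WT and 53145, 33642 and 32224 CPM in KO. KO lay below WT in all libraries at ZT4 and in all but KO ZT16 replicate 2 at ZT16.

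For complex IV, mt-Co1 encodes the catalytic subunit of cytochrome c oxidase and had the highest CPM of the 37 genes. It was at 52401, 48733 and 45669 CPM in WT and 36513, 37550.4 and 39156 CPM in KO at ZT4. At ZT16 mt-Co1 was at 56477, 52445 and 59259 CPM in WT and 61002, 40763 and 41789 CPM in KO. As for mt-Cytb, KO lay below WT in all libraries at ZT4 and in all but KO ZT16 replicate 2 at ZT16. That library was the highest of the 12.

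mt-Co2 had 519, 58 and 73 counts in WT and 16, 43 and 107 in KO at ZT4, and 443, 353 and 466 in WT and 665, 184 and 68 in KO at ZT16. mt-Co3 had 186, 162 and 218 counts in WT and 108, 214 and 26 in KO at ZT4, and 247, 359 and 396 in WT and 310, 262 and 137 in KO at ZT16. Both lie in the chromosome 1 stretch, and within a group of 3 libraries the counts of mt-Co2 spread widely. Of complex V, mt-Atp6 encodes the subunit that forms the proton channel and had 241, 187 and 276 counts in WT and 145, 223 and 131 in KO at ZT4. At ZT16 mt-Atp6 had 609, 354 and 766 counts in WT and 693, 463 and 219 in KO. mt-Atp8 had 2, 3 and 2 counts in WT and 3, 2 and 1 in KO at ZT4, and 1, 3 and 9 in WT and 7, 1 and 2 in KO at ZT16. At these counts the groups of mt-Atp8 overlapped.

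The rRNAs form the small (12S) and large (16S) subunits of the mitochondrial ribosome. mt-Rnr1, the 12S rRNA (ENSMUSG00000064337), was at 693, 658 and 511 CPM in WT and 412, 382 and 435 CPM in KO at ZT4. At ZT16 mt-Rnr1 was at 1124, 1090.1 and 1354 CPM in WT and 1082, 907 and 722 CPM in KO. It was the only tested gene of the 21 whose KO libraries, replicate 2 included, lay below WT at ZT16 as well as at ZT4. mt-Rnr2, the 16S rRNA (ENSMUSG00000064339), was at 1144, 1226 and 977 CPM in WT and 719, 621 and 796 CPM in KO at ZT4. At ZT16 mt-Rnr2 was at 2149, 2545 and 2976 CPM in WT and 2403, 1766 and 1514 CPM in KO. For both rRNAs every ZT16 library lay above every ZT4 library of the same genotype.

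Of the 22 tRNAs, 10 had 0 counts in all 12 libraries (mt-Tf, mt-Tv, mt-Ts1, mt-Td, mt-Tk, mt-Tg, mt-Tr, mt-Th, mt-Ts2 and mt-Tl2). With 3 counts as the limit that a count of 0 allows, they lay below 0.0789 to 0.117 CPM depending on the library, a limit of counting error only. mt-Tl1, mt-Tn, mt-Tc and mt-Ty had at most 13 counts in any library. The other 8 passed the filter on low counts, which keeps genes with enough counts in at least 3 libraries. A gene is therefore more likely to be kept where a group is high, and counts over the 21 tested genes are not counts over all 37.

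mt-Ti was at 16.7, 15.7 and 12.7 CPM in WT and 9.29, 10.4 and 9.79 CPM in KO at ZT4. At ZT16 mt-Ti was at 28.2, 25.7 and 31.8 CPM in WT and 27.3, 18.1 and 12.9 CPM in KO. KO lay below WT at ZT4, and KO ZT16 replicate 2 alone reached the WT range at ZT16. mt-Tw, for tryptophan, was at 3.89, 8.84 and 7.35 CPM in WT and 4.26, 3.53 and 5.15 CPM in KO at ZT4, and at 6.26, 19.3 and 13.9 CPM in WT and 9.68, 5.91 and 11.3 CPM in KO at ZT16. mt-Tm, for methionine, was at 2.87, 1.99 and 2.33 CPM in WT and 1.77, 2.18 and 3.55 CPM in KO at ZT4, and at 4.24, 2.81 and 4.19 CPM in WT and 5.47, 2.53 and 2.93 CPM in KO at ZT16. Both overlapped between the genotypes at each time.

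The remaining tested tRNAs lay at low levels. mt-Tq, for glutamine, was at 0.629, 0.295 and 3.32 CPM in WT and 0.42, 3.59 and 3.28 CPM in KO at ZT4, and at 5.22, 5.63 and 3.68 CPM in WT and 9.29, 3.99 and 3.51 CPM in KO at ZT16. mt-Tp, for proline, was at 0.21, 0.774 and 1.34 CPM in WT and 0.63, 1.22 and 2.11 CPM in KO at ZT4, and at 2.52, 3.52 and 2.69 CPM in WT and 2.83, 2.24 and 2.51 CPM in KO at ZT16. In mt-Tp every ZT16 library lay above every ZT4 library. mt-Tt, for threonine, had 18, 7 and 15 counts in WT and 15, 14 and 19 in KO at ZT4, and 36, 40 and 41 in WT and 86, 17 and 21 in KO at ZT16. KO ZT16 replicate 2 had the highest count of mt-Tt, and the other KO libraries at ZT16 lay below WT. mt-Ta, for alanine, had 0, 0 and 7 counts in WT and 2, 10 and 5 in KO at ZT4, and 10, 12 and 6 in WT and 13, 10 and 6 in KO at ZT16. mt-Te, for glutamate, had 6, 5 and 11 counts in WT and 5, 6 and 6 in KO at ZT4, and 7, 15 and 8 in WT and 11, 10 and 6 in KO at ZT16. These 5 genes rest on few counts in some libraries, which limits how precisely they can be compared.

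**Figure D3:**
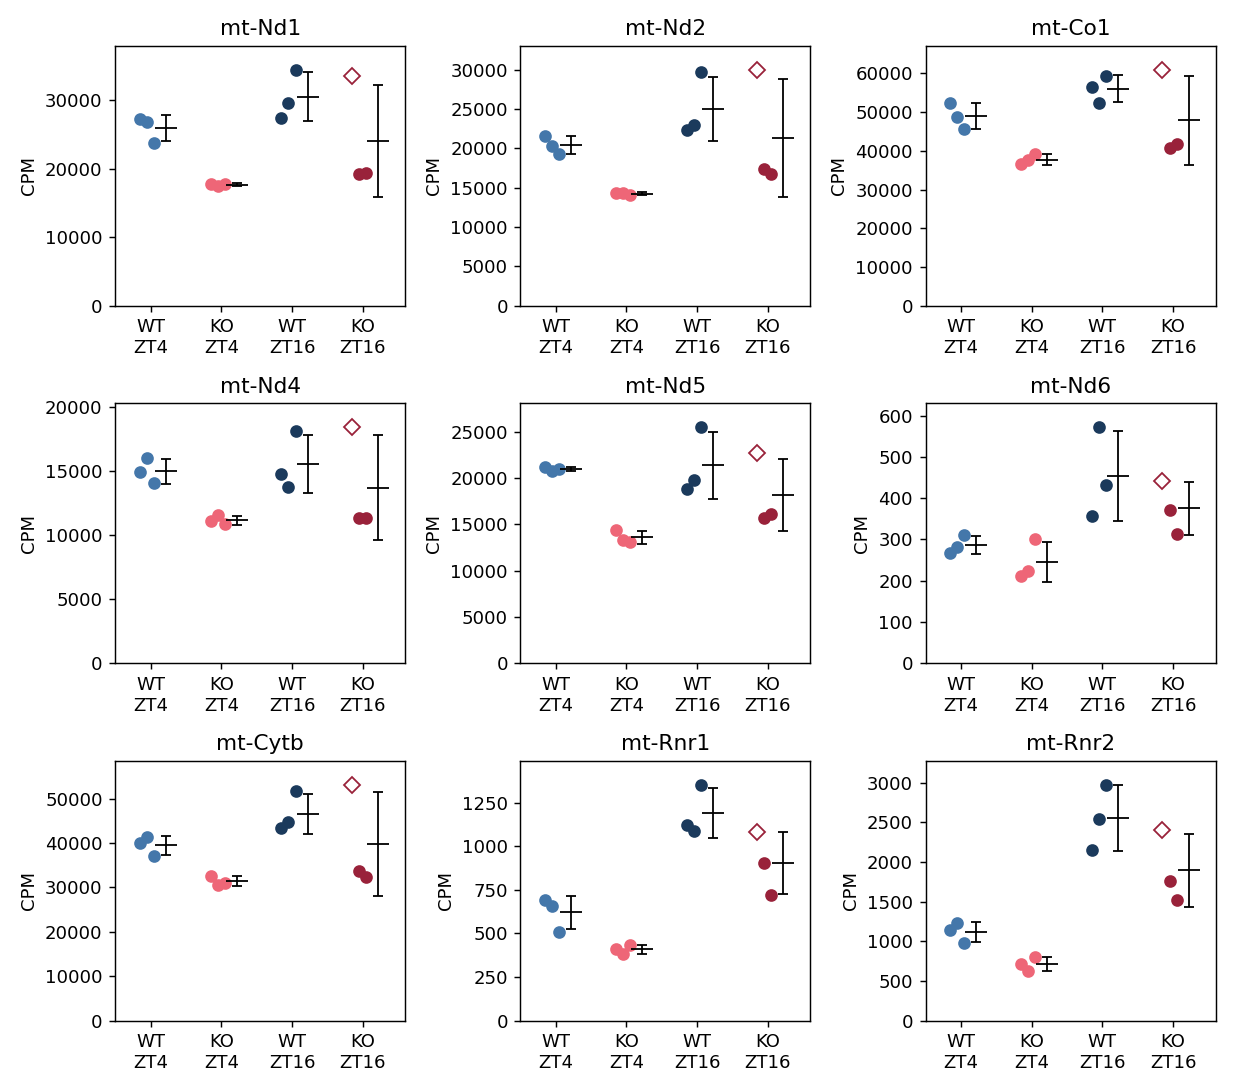
CPM of the 7 well-covered mRNAs and both rRNAs, 1 point per library by group; black bars are mean ± SD of 3 libraries and the open diamond is KO ZT16 replicate 2. In all panels but that of mt-Nd6 the KO libraries at ZT4 lie below the WT libraries, and in the rRNA panels all ZT16 libraries lie above the ZT4 libraries of the same genotype.

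KO was compared with WT at each time over all 16150 tested genes, with fold changes from edgeR's quasi-likelihood test after TMM scaling and a call at an adjusted p under 0.05. At ZT4 the 7 well-covered mRNAs had log2 fold changes of −0.80 to −0.41 in KO, with a median of −0.61, where the median of all genes was 0.00. mt-Rnr1 was at −0.79 and mt-Rnr2 at −0.83. None of the 21 tested genes was called by edgeR at ZT4, where 3.29% of all genes were, though 9 had an unadjusted p under 0.05, and limma voom called 0 and DESeq2 3. For the 7 mRNAs the adjusted p ran from 0.0863 to 0.330. The 3 largest fold changes were those of genes inside the chromosome 1 stretch, mt-Co2 (−2.07, adjusted p = 0.289), mt-Co3 (−1.04, adjusted p = 0.229) and mt-Nd3 (−1.03, adjusted p = 0.528). Without WT ZT4 replicate 1, the library with 519 counts, mt-Co2 was at −0.46. In CPM, 10 of the 21, among them 6 of the 7 mRNAs, lay in KO below WT with no overlap, and 5.08% of all genes did so.

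At ZT16 the same mRNAs had log2 fold changes of −0.43 to −0.28, with a median of −0.33 beside 0.02 over all genes, and mt-Rnr1 and mt-Rnr2 were at −0.51 and −0.54. edgeR called 0 of the 21, beside 4.03% of all genes, with 3 at an unadjusted p under 0.05, and DESeq2 and limma voom called 0. The 3 largest were mt-Nd3 (−1.15, adjusted p = 0.510), mt-Tw (−0.68, adjusted p = 0.432) and mt-Ti (−0.64, adjusted p = 0.287). Only mt-Rnr1 lay in KO below WT with no overlap in CPM, as did 3.98% of all genes.

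Without KO ZT16 replicate 2 the calls differed at both times. That library held 22.3% of its gene counts on the mitochondrial chromosome, and the other KO ZT16 libraries 14.1% and 14.03%. Leaving it out therefore lowers the KO values at ZT16, and the ZT16 calls below are no separate support for a difference. In the fit without it edgeR called 12 of the 21 lower in KO at ZT16, all 7 mRNAs and both rRNAs among them, where 16.5% of all 16360 genes were called lower. The mRNAs then had log2 fold changes of −0.95 to −0.67 with a median of −0.74, and mt-Rnr1 and mt-Rnr2 −0.83 and −0.92. At ZT4, where no library was removed and the fold changes stayed at −0.80 to −0.41, 9 of the 21 were called lower, 6 of the mRNAs among them, beside 7.48% of all genes. The 4 groups share 1 estimate of spread per gene.

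**Figure D4:**
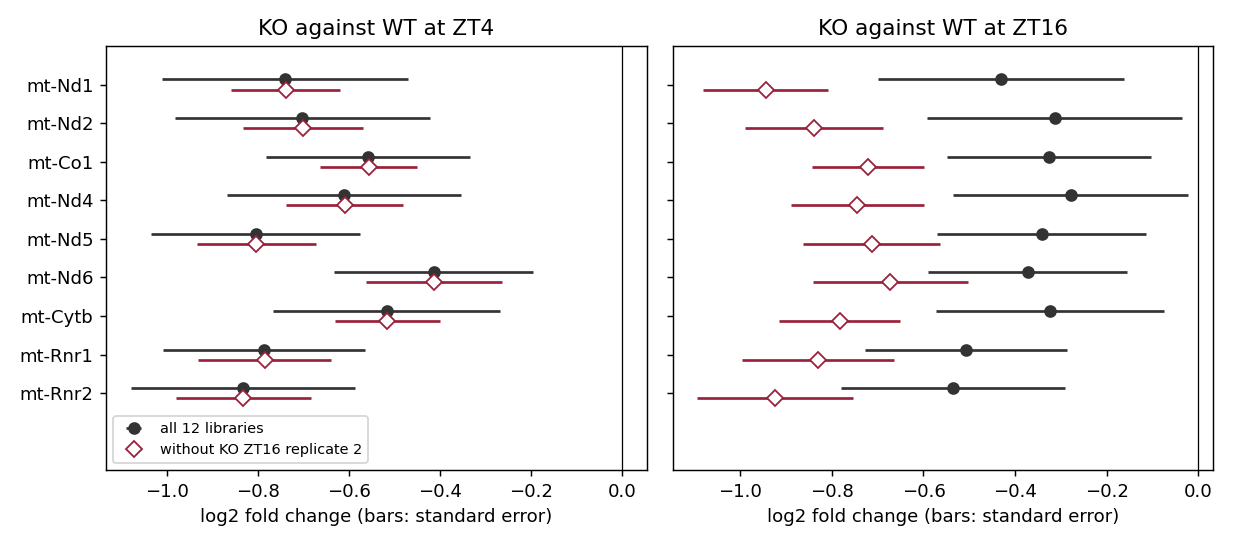
Log2 fold change of KO against WT with its standard error for the 7 well-covered mRNAs and both rRNAs, at ZT4 and ZT16, from edgeR fits of all 12 libraries (filled) and without KO ZT16 replicate 2 (open diamonds). All values are below 0; at ZT4 both fits give the same values with shorter bars in the second, and at ZT16 the values without that library are lower, with a median over the mRNAs of −0.74 against −0.33.

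Averaged over both times, 4 of the 21 fell in KO by edgeR's quasi-likelihood test. These were mt-Rnr1 (−0.65 ± 0.157, SE, adjusted p = 0.0204), mt-Rnr2 (−0.68 ± 0.173, SE, adjusted p = 0.0251), mt-Nd5 (−0.57 ± 0.162, SE, adjusted p = 0.0401) and mt-Ti (−0.72 ± 0.203, SE, adjusted p = 0.0407). Over all genes, 5.31% fell. The other mRNAs had log2 fold changes of −0.59 to −0.39 and were not called. The largest values, again in the chromosome 1 stretch, were not called either, mt-Co2 at −1.26 (adjusted p = 0.224), mt-Nd3 at −1.09 (adjusted p = 0.239) and mt-Co3 at −0.77 (adjusted p = 0.110). These 4 calls rest on single libraries. Without WT ZT4 replicate 1 or 3, WT ZT16 replicate 5 or KO ZT16 replicate 4 none was called, without KO ZT4 replicate 2 or 4 or KO ZT16 replicate 6 it was 1, and without KO ZT4 replicate 6 it was 2. Without KO ZT16 replicate 2 it was 14, beside 21.7% of all genes.

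Between the light and the dark phase, the rRNAs moved most among the well-covered genes. In WT, 5 of the 21 rose from ZT4 to ZT16 by edgeR's quasi-likelihood test, where 2.87% of all genes did. They were mt-Rnr2 (log2 fold change 1.39 ± 0.248, SE, adjusted p = 0.00950), mt-Rnr1 (1.13 ± 0.223, SE, adjusted p = 0.0145), mt-Ti (1.12 ± 0.286, SE, adjusted p = 0.0400), mt-Nd6 (0.84 ± 0.219, SE, adjusted p = 0.0418) and mt-Tp (2.11 ± 0.474, SE, adjusted p = 0.0248). mt-Tq (1.94, adjusted p = 0.126) and mt-Ta (1.93, adjusted p = 0.144) had large values and were not called. All 21 had a positive fold change, the 7 mRNAs 0.23 to 0.84 with a median of 0.43. In CPM, 13 of the 21 lay at ZT16 above ZT4 with no overlap, beside 9.95% of all genes. Without WT ZT16 replicate 5 the calls dropped to 1 and without any WT ZT4 library to 2, while without KO ZT16 replicate 2 they were 14, beside 17.5% of all genes.

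In KO, 5 of the 21 rose from ZT4 to ZT16, where 5.27% of all genes did. mt-Rnr2 rose by 1.69 ± 0.251 (SE, adjusted p = 0.00556), mt-Rnr1 by 1.41 ± 0.225 (SE, adjusted p = 0.00742), mt-Atp6 by 1.72 ± 0.390 (SE, adjusted p = 0.0229), mt-Ti by 1.27 ± 0.293 (SE, adjusted p = 0.0236) and mt-Nd6 by 0.88 ± 0.219 (SE, adjusted p = 0.0311) on the log2 scale. mt-Co2 had 2.65 and was not called (adjusted p = 0.0829), and it had 1.28 without KO ZT16 replicate 2. The 7 mRNAs had 0.58 to 0.88 with a median of 0.69, and 11 of the 21 had no overlap in CPM, beside 8.12% of all genes. Without KO ZT16 replicate 2, 5 were again called, beside 3.85% of all genes, mt-Rnr2 at 1.30, mt-Rnr1 at 1.09, mt-Ti at 0.76, mt-Atp6 at 1.203 and mt-Nd6 at 0.59. The mRNAs then had 0.12 to 0.59 with a median of 0.23. Without any 1 of the KO ZT4 libraries the calls were 2, and without KO ZT16 replicate 4 or 6 they were 11 or 13.

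The change of the genotype effect between the times, the interaction, was tested directly. edgeR called 0 of the 21, with 0 at an unadjusted p under 0.05, DESeq2 and limma voom called 0, and 0.0186% of all genes were called. mt-Co2 (1.62), mt-Ta (−0.93) and mt-Tp (−0.88) had the largest values, each with an adjusted p of 0.9996. Over the 7 mRNAs the interaction was 0.04 to 0.46, and its median was 0.31 with all libraries and −0.16 without KO ZT16 replicate 2.

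How far the genes moved together was read from their share of the summed mitochondrial mRNA. Over the 12 libraries, mt-Co1 made up 27.0% to 31.0% of that sum, mt-Cytb 22.5% to 25.7%, mt-Nd5 10.2% to 12.98%, mt-Nd4 7.48% to 9.26% and mt-Nd6 0.151% to 0.311%. For the 6 well-covered mRNAs other than mt-Nd6, the SD of log2 share was 0.05 to 0.10, where the SD of log2 CPM was 0.26 to 0.38. The SD of log2 share was 0.31 for mt-Nd6, 0.42 for mt-Rnr1 and 0.55 for mt-Rnr2. These values include the difference between the times. Within groups, the SD of log2 CPM and of log2 share was 0.18 to 0.27 and 0.03 to 0.08 for those 6 mRNAs, 0.21 and 0.14 for mt-Rnr1 and 0.24 and 0.14 for mt-Rnr2. Shares of 1 sum depend on each other, and mt-Co1 and mt-Cytb alone fill much of it.

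**Figure D5:**
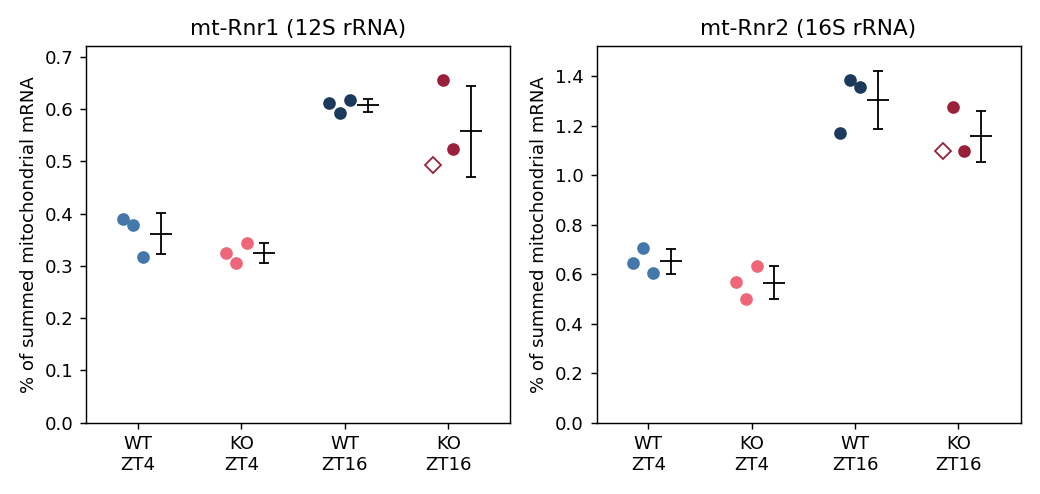
mt-Rnr1 and mt-Rnr2 as a percentage of the summed mitochondrial mRNA, 1 point per library by group; black bars are mean ± SD of 3 libraries and the open diamond is KO ZT16 replicate 2. All ZT16 libraries lie above all ZT4 libraries in both panels, the open diamond included. The sum is almost wholly that of the well-covered mRNAs, and the rRNA counts follow capture by the tail as well as abundance.

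Against the summed counts of the mRNAs of their own genome, the rRNA counts stood higher at ZT16 in both genotypes. That sum is almost wholly the well-covered mRNAs, as the other mRNAs made up at most 0.0227% of it. The rRNA counts follow capture by very short tails as well as abundance. Whether abundance or capture differed between the times was not tested. The summed rRNAs were 0.803% to 1.08% of the mitochondrial mRNA in the 6 libraries at ZT4 (0.951% ± 0.101, SD) and 1.59% to 1.98% in the 6 at ZT16 (1.81% ± 0.176, SD). By group they were 1.01% ± 0.0815 in WT and 0.890% ± 0.0862 in KO at ZT4, and 1.91% ± 0.112 and 1.71% ± 0.190 at ZT16 (SD, n = 3). mt-Rnr1 was at 0.306% to 0.390% at ZT4 and 0.493% to 0.655% at ZT16, and mt-Rnr2 at 0.497% to 0.704% and 1.096% to 1.38%. The times did not overlap for either, and KO ZT16 replicate 2, at 1.59% for the sum, lay with the ZT16 libraries. There were 1.63 to 1.91 counts of mt-Rnr2 per count of mt-Rnr1 at ZT4 and 1.91 to 2.33 at ZT16.

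The same comparison was fitted with the summed mitochondrial mRNA as library size, which removes what the mRNAs share and moves the median of all genes to 0.62 and 0.47 for KO against WT at ZT4 and ZT16 and to −0.37 and −0.52 for ZT16 against ZT4 in WT and KO. By edgeR's quasi-likelihood test mt-Rnr2 rose relative to the mRNAs from ZT4 to ZT16, by 1.001 ± 0.142 in WT (SE, adjusted p = 0.0224) and 1.03 ± 0.142 in KO (SE, adjusted p = 0.0211). It was the only call among the 21, beside 0.0248% and 0.00619% of all genes called higher. Over the alternatives its adjusted p reached 0.209 in WT and 0.138 in KO. The call was lost in WT without any 1 of the 6 WT libraries or KO ZT4 replicate 2, and in KO without any 1 of the KO ZT4 libraries, KO ZT16 replicate 4 or WT ZT4 replicate 1 or 3. mt-Rnr1 had 0.75 (adjusted p = 0.0779) and 0.78 (adjusted p = 0.0579). Both rRNAs were called in both genotypes without KO ZT16 replicate 2. mt-Rnr1 then had 0.75 in WT (adjusted p = 5.14e-04) and 0.86 in KO (adjusted p = 0.00203). In WT 7 of the 21 were called higher in that fit, the others being mt-Ti, mt-Atp6, mt-Nd6, mt-Tt and mt-Tp, beside 1.42% of all genes, and in KO these 2, beside 0.254%. mt-Tp (1.71), mt-Ta (1.57) and mt-Tq (1.55) in WT and mt-Co2 (1.68) and mt-Atp6 (1.02) in KO had larger or similar values and were not called.

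For KO against WT on this scale, edgeR called 0 of the 21 at ZT4 (1 at an unadjusted p under 0.05), 0 at ZT16 (0 unadjusted) and 0 over both times (0 unadjusted), beside 1.81%, 1.25% and 68.9% of all genes. The 7 mRNAs lay at −0.18 to 0.20 at ZT4 and −0.11 to 0.06 at ZT16. The largest values at ZT4 were those of mt-Ta (1.58), mt-Co2 (−1.35) and mt-Tp (1.17), at ZT16 those of mt-Nd3 (−0.74), mt-Ta (0.39) and mt-Co2 (−0.37), and over both times those of mt-Ta (0.98), mt-Co2 (−0.86) and mt-Tq (0.76). The interaction gave 0 calls among the 21 and 0.0% of all genes, with mt-Ta at −1.196, mt-Tp at −1.11 and mt-Co2 at 0.99. Without KO ZT16 replicate 2, edgeR called mt-Nd5 (−0.18, adjusted p = 0.0359) and mt-Tp (1.17, adjusted p = 0.0335) at ZT4 and mt-Ti (−0.38, adjusted p = 0.0400) at ZT16, beside 81.5% and 78.7% of all genes. Over both times it then called mt-Nd1 (−0.14, adjusted p = 0.0187), mt-Ti (−0.27, adjusted p = 0.0259) and mt-Co2 (−1.24, adjusted p = 0.0240), beside 88.5%. In shares, mt-Nd1, mt-Nd2 and mt-Nd5 lay in KO below WT at ZT4 with no overlap, as 0.706% of all genes did, and mt-Cytb lay above, as 84.4% did. At ZT16 only mt-Ti lay below with no overlap, beside 0.873% of all genes.

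Between the times, mt-Nd2 was the abundant mRNA whose share shifted up without overlap in both genotypes, together with mt-Rnr1, mt-Rnr2 and mt-Ti, and mt-Nd4 the one whose share shifted down in both. In WT 7 of the 21 lay higher at ZT16 without overlap, beside 3.08% of all genes, and 2 lower, mt-Nd4 and mt-Nd5, beside 47.7%. In KO 6 lay higher, beside 0.724%, and 2 lower, mt-Nd4 and mt-Cytb, beside 60.1%. None of these mRNAs was called on this scale.

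The nuclear genes that transcribe the mitochondrial genome were mostly not called in the comparisons of levels. Of 11 transcription genes, 0 were called for KO against WT at ZT4, ZT16 or over both, beside 3.29%, 4.03% and 11.4% of all genes. Their median log2 fold change was −0.19 at ZT4 and −0.03 at ZT16, beside 0.00 and 0.02 over all genes. At both times it lay on the side of the mitochondrial mRNAs. Tfam, which packages mitochondrial DNA and starts its transcription, had a log2 fold change of 0.19 at ZT4 (adjusted p = 0.361). Polrmt, the mitochondrial RNA polymerase, had 0.17 (adjusted p = 0.544). Tfam was at 32.3, 35.2 and 39.3 CPM in WT and 49.4, 44.8 and 43.6 CPM in KO at ZT4, and at 28.0, 33.9 and 24.7 CPM in WT and 23.5, 37.6 and 33.4 CPM in KO at ZT16. In CPM Tfam lay in KO above WT at ZT4, as 42.8% of all genes did, and at ZT16 the groups overlapped. Between the times in KO, 1 of the 11 rose, beside 5.27% of all genes. This was Mterf3, a regulator of mitochondrial transcription and ribosome assembly, at 0.68 on the log2 scale (adjusted p = 0.0447). Without KO ZT16 replicate 2 it had 0.35 and was not called, and for KO against WT at ZT16 edgeR called 6 of the 11 lower and 2 higher, beside 31.2% of all genes in either direction. Polrmt was 1 of the 2, at 0.43 (adjusted p = 0.00805), and Tfam had 0.03.

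Genes that process, stabilise and degrade mitochondrial RNA gave no call between the genotypes. Of 14 processing genes and 8 stability and decay genes 0 were called for KO against WT at ZT4, ZT16 or over both by edgeR, where 3.29%, 4.03% and 11.4% of all genes were. Lrpprc, which stabilises the mRNAs, had −0.03 at ZT4 (adjusted p = 0.877), Mtpap, the poly(A) polymerase, −0.04 (adjusted p = 0.817), and Pnpt1, the exoribonuclease, −0.04 (adjusted p = 0.904). Pde12, which removes A tails, rose from ZT4 to ZT16 by 0.50 in WT (adjusted p = 0.00608) and 0.54 in KO (adjusted p = 0.00576). Over all genes, 2.87% rose in WT and 5.27% in KO. In KO, Ptcd2 (0.53, adjusted p = 0.0207), needed for processing at mt-Cytb, and Trmt10c (0.64, adjusted p = 0.0219), a subunit of the RNase P that frees the tRNAs, also rose. Among 23 modification genes, 3 rose between the times in KO, Trmt5 (0.43, adjusted p = 0.0295), Mrm3 (0.56, adjusted p = 0.0355) and Mrm2 (0.54, adjusted p = 0.0468), of which Mrm2 and Mrm3 methylate the 16S rRNA. None of these 3 was called without KO ZT16 replicate 2, while Pde12, Ptcd2 and Trmt10c were. In that fit KO against WT at ZT16 gave 7 calls of 14 processing genes, 2 of 8 stability and decay genes and 3 of 23 modification genes, beside 31.2% of all genes.

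With all libraries, translation and replication genes were called as follows. Over all genes, edgeR called 3.29%, 4.03% and 11.4% for KO against WT at ZT4, at ZT16 and over both times. Gfm1, the elongation factor G1 of the mitochondrial ribosome, fell in KO at ZT4 by 0.38 (adjusted p = 0.0117), at ZT16 by 0.39 (adjusted p = 0.00704) and over both by 0.39 (adjusted p = 3.57e-04), the only call of 14 translation factors. Slc25a33, a pyrimidine nucleotide carrier, fell in KO at ZT16 by 0.50 (adjusted p = 0.0166) and over both by 0.40 (adjusted p = 0.00448), 1 of 16 replication genes. Primpol fell between the times in KO by 0.38 (adjusted p = 0.0408). Of 22 aminoacyl-tRNA synthetases and related enzymes, Wars2, for tryptophan, was higher in KO at ZT16 (0.40, adjusted p = 0.0371) and over both (0.24, adjusted p = 0.0444) and fell between the times in WT by 0.38 (adjusted p = 0.0387). Qrsl1 (0.42, adjusted p = 0.0136) and Ears2 (0.39, adjusted p = 0.0221) rose between the times in KO, beside 5.27% of all genes. Of all 16150 genes, 587 fell between the times in WT and 840 in KO. In the fit without KO ZT16 replicate 2, 6 of 16 replication genes, 6 of 22 synthetases and related enzymes and 3 of 14 translation factors were called for KO against WT at ZT16, beside 31.2% of all genes, and 6 of each over both times, beside 42.4%.

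The protein partners of the rRNAs are 78 tested ribosomal proteins. For KO against WT 0 were called at ZT4 and at ZT16 and 1 over both, beside 3.29%, 4.03% and 11.4% of all genes. The 1 was Mrps30, which rose by 0.25 (adjusted p = 0.0246). Between the times in KO 8 rose, beside 5.27% of all genes, with a median of 0.35 over the 78. The smallest adjusted p among them were those of Mrpl49 (0.49, adjusted p = 0.0329), Mrpl47 (0.77, adjusted p = 0.0335), Mrps25 (0.43, adjusted p = 0.0398) and Mrpl51 (0.79, adjusted p = 0.0400). In WT 0 were called between the times, with a median of 0.28. Without KO ZT16 replicate 2, 3 rose in KO and 48 in WT between the times, beside 3.85% and 17.5% of all genes, and 36 were lower in KO at ZT16, beside 16.5%, and 2 higher.

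After TMM scaling, the nuclear subunits of the complexes that hold mitochondrial subunits had medians on the same side as the mitochondrial mRNAs. At ZT4 the median of KO against WT was −0.23 over 36 complex I subunits, −0.24 over 9 of complex III, −0.26 over 11 of complex IV and −0.18 over 17 of complex V, beside 0.00 over all genes and −0.61 over the 7 mitochondrial mRNAs. At ZT16 the medians were −0.09, −0.08, −0.15 and −0.12. For ZT16 against ZT4 they were 0.46, 0.46, 0.53 and 0.39 in WT and 0.57, 0.72, 0.55 and 0.39 in KO. In these comparisons 0 subunits were called, and over both times Ndufa10 (−0.25, adjusted p = 0.0191) and Ndufa13 (−0.32, adjusted p = 0.0221) of complex I fell, beside 5.31% of all genes. Without TMM scaling, the sums at ZT4 did not all lie lower in KO. In summed CPM, complex V was at 7557 ± 231 in WT and 8038 ± 72.3 in KO, and complex III at 2631 ± 189 and 2647 ± 56.1 (SD, n = 3). Complex I was at 4950 ± 288 and 4877 ± 40.1 and complex IV at 3105 ± 298 and 2984 ± 73.1. TMM factors at ZT4 were 0.981 to 1.04 in WT and 1.14 to 1.15 in KO. Complex II, made of 4 nuclear subunits only, had medians of −0.03 and −0.05 for the genotype and 0.15 and 0.17 for the time, with 0 calls.

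These counts also turned on KO ZT16 replicate 2. Without it, 28 of 36 complex I subunits, 8 of 9 of complex III, 11 of 11 of complex IV, 11 of 17 of complex V and 2 of 4 of complex II were lower in KO at ZT16, beside 16.5% of all genes. From ZT4 to ZT16 in WT 29, 8, 11, 12 and 2 of them rose, beside 17.5%, and in KO 0 of each were called. Of 18 regulators of mitochondrial biogenesis 5 were called at ZT16 in that fit, beside 31.2%. With all libraries, Ppargc1a, the coactivator PGC-1alpha, had 0.06 at ZT4 and 0.09 at ZT16 in KO (adjusted p = 0.706 and 0.649). Thra, a thyroid hormone receptor, rose in KO by 1.15 and 1.44 on the log2 scale at the 2 times (adjusted p of 2.73e-05 and 4.22e-06) and fell between the times in WT by 0.59 (adjusted p = 0.00537). The 3′ end of Thra, at chromosome 11 from 98740638 to 98769006 on the plus strand, overlaps Nr1d1, a clock gene at 98767932 to 98775333 on the minus strand, and their reads cannot be told apart without a stated strand setting.

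Marker lists of kidney cells and RNA quality moved as follows beside the mitochondrial genes. Of 16 proximal tubule markers, 4 fell in KO at ZT4 and 2 at ZT16, beside 1.66% and 1.96% of all genes, with medians of −0.14 and −0.13, and their sum was 55692 ± 4206 CPM in WT and 49264 ± 1201 CPM in KO at ZT4 (SD, n = 3). At ZT16 it was 66624 ± 8927 CPM and 63685 ± 15970 CPM. Of 8 thick ascending limb markers 1 fell at ZT4, and of 7 intercalated cell markers 1 rose at each time. Among all 16150 genes, 263 rose in KO at ZT4 and 335 at ZT16. Of 9 macrophage markers 1 fell at each time. Of 6 distal convoluted tubule, 7 principal cell, 7 podocyte, 8 endothelial and 7 fibroblast markers 0 were called at ZT4 or ZT16 with all libraries. Podocyte markers summed to 262 ± 34.5 CPM in WT and 344 ± 8.19 CPM in KO at ZT4. Sums at ZT4 were also higher in KO for distal convoluted tubule (1493 and 1946 CPM), principal cells (395 and 500 CPM) and intercalated cells (311 and 379 CPM). The same held for endothelium (585 and 626 CPM) and fibroblasts (294 and 321 CPM). They were lower for thick ascending limb (7856 and 7572 CPM) and macrophages (204 and 171 CPM). In CPM, 42.8% of all genes lay higher in KO at ZT4 with no overlap. Red blood cell genes gave 0 calls of 5, with medians of −0.55 at ZT4 and −0.19 at ZT16, and Hbb-bs, a beta-globin gene, ranged from 109 to 294 CPM, Hba-a1 from 36.2 to 103 CPM, Hba-a2 from 24.2 to 76.5 CPM and Hbb-bt from 3.77 to 9.32 CPM. Malat1 and Neat1, the nuclear RNAs, had a median of 0.34 at ZT4 and 0.24 at ZT16 with 0 calls, and Neat1 ranged from 597 to 1330 CPM. These lists too gave other counts without KO ZT16 replicate 2. Both nuclear RNAs were then called higher in KO at ZT16, with a median of 0.43, and 1 of the 2 at ZT4, beside 31.2% and 15.3% of all genes called. Of the proximal tubule markers 6 were lower at ZT4, and 6 were lower and 2 higher at ZT16. At ZT16 edgeR then called 3 of 6 distal convoluted tubule, 5 of 7 principal cell, 3 of 7 intercalated cell, 2 of 8 thick ascending limb, 1 of 7 podocyte, 3 of 8 endothelial, 2 of 9 macrophage, 2 of 7 fibroblast and 1 of 5 red blood cell markers. The part of cell makeup and RNA quality in the values of the mitochondrial genes was not tested.

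Nuclear copies with counts of their own were followed for comparison. Gm13340, a copy of mt-Co1 on chromosome 2 with 97.6% identity, had 481 to 1507 counts per library, 23.6 ± 0.830 CPM in WT and 22.004 ± 8.03 CPM in KO at ZT4, and 35.8 ± 3.61 CPM and 29.2 ± 6.59 CPM at ZT16 (SD, n = 3). Gm13341, the copy of mt-Co2 whose start is printed, with 95.9% identity, had 112 to 348 counts, 6.49 ± 1.72 CPM and 4.29 ± 0.565 CPM at ZT4, and 8.47 ± 1.21 CPM and 6.33 ± 2.52 CPM at ZT16. Gm10222, in the chromosome 1 stretch, had 22 to 436 counts. None of these 3 was called in any of the 6 comparisons with all libraries. In the fit without KO ZT16 replicate 2, Gm13340 was called for KO against WT at ZT16 (−0.74, adjusted p = 0.0129), over both times (−0.51, adjusted p = 0.00759) and between the times in WT (0.79, adjusted p = 0.00469). Gm13341 was then called at ZT4 (−0.78, adjusted p = 0.0245), at ZT16 (−1.07, adjusted p = 0.00406), over both (−0.92, adjusted p = 4.66e-04) and between the times in WT (0.58, adjusted p = 0.0331). Both chromosome 2 copies had their highest mean in WT at ZT16, as the 7 well-covered mRNAs did, and whether their reads came from the copies or from mitochondrial RNA with sequence errors was not tested.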

How the data were processed

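RNA was measured in 12 whole-kidney libraries made from 500 ng of RNA each, per the labels' protocols. Each deposited file held counts of reads per gene for 38924 gene IDs, which the authors made with cutadapt 1.2.1, TopHat2 2.0.9 on GRCm38 and HTSeq 0.5.4p3, per the submitters' processing notes. These notes also name edgeR and limma in R 3.1.1. Counting mode and strand setting were not stated there. The 5 lines per file for unassigned reads (no feature 3.50% to 5.96%, ambiguous 0.411% to 0.534%, not unique 30.8% to 43.0%) stayed out of library sizes and tests.

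Genes, positions and transcripts are those of GENCODE M21. Nuclear copies were found by aligning the mitochondrial transcripts to all others with blastn 2.17.0 (word size 20, e-value 1e-10) and by matching runs of at least 100 identical bases. filterByExpr over the 4 groups left 16150 genes, 21 of the 37 members among them. They were scaled by TMM and tested in 1 fit of all 12 libraries with edgeR 4.0.16's quasi-likelihood test in R 4.3.3 (8 residual degrees of freedom, common dispersion 0.01785). p-values were adjusted by Benjamini-Hochberg over all genes tested, with a call at an adjusted p under 0.05. A second fit took the summed counts of the 13 mRNAs as library size, with no further scaling. CPM used the sum of gene counts. The first fit was tested on simulated data, for KO against WT at ZT4, and the second was not. The members and gene lists were chosen with earlier results of these data known. Mpv17, Mtrfr, Ndufb1-ps and Kcnq1ot1 of the lists found no row, and the text leaves them out.

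By the naming rule, members called and the 3 with the largest fold change are named per comparison, and at most 4 called genes of each list, taken by adjusted p. Alternatives were RLE and upper-quartile scaling, nuclear library sizes, DESeq2 1.42.0, limma 3.58.1 voom, no filter on low counts, a filter at a mean of 5 CPM, only the compared libraries, adjusted p under 0.01, a replicate block, other denominators of the share, the mRNA sum without mt-Co1 and each library left out. Chosen after seeing the data were the length without identical bases, the gene lists without KO ZT16 replicate 2, and the replicate block and adjusted p under 0.01 in the second fit. The fit without KO ZT16 replicate 2 was given in more detail than those without other libraries, with its mitochondrial values known.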

Additional observations from a re-analysis of the deposited data

How the results depend on the processing

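Most calls of mitochondrial genes depended on single libraries and on the estimate of spread. With RLE, upper-quartile or nuclear library sizes or DESeq2, the median log2 fold change of the 7 mRNAs moved by at most 0.036 in any comparison. Scaling to the mRNA sum takes this median to about 0 by construction (0.01 at ZT4). Of the values that answer a comparison, 294 kept their size under an alternative and 74 moved. Of the others 880 stayed, 164 moved, 105 lost and 14 gained a call, and 3 changed sign. At ZT4 the number of members called for KO against WT was 0, with no filter 1, with only the compared libraries 12 and with DESeq2 3, and it ran from 0 to 9 with 1 library left out. At ZT16 it was 0 and ran from 0 to 12. Over both times it was 4, with DESeq2 7, at adjusted p under 0.01 0, and 0 to 14 with 1 library left out. For ZT16 against ZT4 in WT it was 5, with only the compared libraries 11, at adjusted p under 0.01 1, and 1 to 14 with 1 library left out. In KO it was 5, with no filter 9, with only the compared libraries 0, with DESeq2 14, at adjusted p under 0.01 2, and 2 to 13. Relative to the mRNA sum it was 1 in each genotype and 0 in each at adjusted p under 0.01, and with 1 library left out it was 0 to 7 in WT, 0 to 2 in KO, 0 to 2 for KO against WT at ZT4, 0 to 1 at ZT16 and 0 to 3 over both. The interaction gave 0 members throughout. The cause was not tested.

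With 1 library left out, the median log2 fold change of the 7 mRNAs for KO against WT ran from −0.68 to −0.54 at ZT4, −0.74 to −0.16 at ZT16 and −0.68 to −0.36 over both, for the times from 0.28 to 0.51 in WT and 0.23 to 0.85 in KO, and for the interaction from −0.16 to 0.51. Relative to the mRNA sum, mt-Co2 ran from −2.55 to 0.16 at ZT4 (positive without WT ZT4 replicate 1), from −1.08 to 0.00097 at ZT16 (positive without KO ZT16 replicate 6) and from −0.53 (without WT ZT4 replicate 1) to 2.18 for the interaction. The mean mitochondrial share ran from 16.9% to 17.8% in WT and 12.7% to 12.8% in KO at ZT4 and from 18.7% to 20.6% and 14.1% to 18.2% at ZT16. As a share of all uniquely aligned reads it was 15.9% and 11.5% at ZT4, and without the 10 most abundant nuclear genes 18.8% and 13.8%, and for the mRNAs alone 12.6% in KO. mt-Co1 and mt-Nd4 moved to 59410 and 27627 CPM per kb with identical bases left out of the length.

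Replicate numbers are shared between the times within a genotype only, so the replicate block applies to the time comparisons. Deviations of same-numbered libraries from their group means had correlations of −0.266 to 0.054 in WT and −0.051 to −0.003 in KO. So few pairs cannot show whether same-numbered libraries shared an animal, litter or day, and the labels do not say what the numbers mark. With the block 2 members were called in WT, 3 in KO and, relative to the mRNA sum, 0 in each.

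All-gene counts varied as well. KO against WT at ZT4 gave 531 genes, 207 at adjusted p under 0.01, 2878 with only the compared libraries, 1044 with DESeq2 and 228 to 2503 with 1 library left out. At ZT16 it gave 651, then 309, 200, 1008 and 380 to 5100. Over both times it gave 1834, 736 at adjusted p under 0.01 and 1120 to 6932 with 1 library left out. The time in WT gave 1050, then 209, 3557, 2149, 229 with the block and 220 to 5473, and in KO 1691, then 136, 36, 3670, 189 and 181 to 3629. The interaction gave 3, DESeq2 18, the block 1 and leaving out a library up to 8. Relative to the mRNA sum, ZT4 gave 292 (73 at adjusted p under 0.01, 66 to 13166 with 1 library left out), ZT16 202 (94, 89 to 12713), both times 11121 (566, from 1616 with 1 library left out), the time in WT 18 (2, 0 to 6814, block 1) and in KO 24 (2, 0 to 333, block 0, and 15 with the sum without mt-Co1). Depth limits the tested members with under 100 counts in some library, mt-Co2, mt-Co3, mt-Nd3 and the tested tRNAs other than mt-Ti and mt-Tw.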
